A study of Sus scrofa with 31 samples.

Results

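The genes described here carry a gene symbol in the array annotation and met the study's definition of expressed in pig whole blood at 20 and at 30 weeks of age, but at neither younger age. A probe was called present on an array when the scanner software flagged its signal both as positive and significant and as well above background, and an age counted as one of expression when over 75% of its arrays had the probe present. The rule therefore took probes present on at least 7 of 8 arrays at 20 weeks and 6 of 7 at 30 weeks, and on at most 6 of 8 fetal and at most 6 of 8 12-week arrays. Descriptions naming interleukins, chemokines, ribosomal proteins, histones, proteasome subunits or heat shock proteins were left out, which dropped 3 probes. This gave 197 probes for 180 gene names, out of 3161 probes and 2081 names that carry a symbol and 43603 probes in all. The same presence pattern was found in 3786 probes of the whole array (8.68%) and in 200 of the probes with a symbol (6.33%). The members were chosen by their presence calls at the 4 ages, so presence counts by age and differences between the later and the earlier ages are descriptions and were not tested.

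Blood came from specific pathogen-free Clawn miniature pigs, a small Japanese laboratory breed, with no treatment and no genetic modification stated. The 31 single-colour Agilent arrays held 8 fetal samples, 8 samples at 12 weeks, 8 at 20 weeks and 7 at 30 weeks, with 4 males and 4 females per age, except for 3 males and 4 females at 30 weeks. Fetuses were removed by Caesarean section before term, and the older animals were caged singly at the breeder's facility. By the study's methods the older animals were 1 cohort of 5 males and 5 females bled repeatedly from 12 to 30 weeks, so the same pig can stand behind arrays of several ages. The labels do not tie arrays to pigs, so the tests took arrays as independent, which makes p-values for sex over several ages too small. A 30-week array titled female but labelled male in its sex field was kept as female.

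Whole blood RNA comes from red cell precursors, platelets and many kinds of white cell, so a transcript from a minor cell type is diluted by the abundant transcripts of the others. A presence call asks only whether a spot is brighter than the array's background, and a gene near that limit can pass it on some arrays and fail on others. In such a mixture, fewer cells of a type and less RNA per cell cannot be told apart. The named members included T cell receptors and coreceptors, antiviral enzymes, Toll-like receptor and NF-kB components, transcription factors and enzymes of fatty acid oxidation.

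Each probe is a 60-base oligonucleotide, so a presence call belongs to that stretch of the transcript. The sequences below are shown because the members differed by stretch as well as by gene, and 30 bases of each are given as the array files have them. The 2 member probes of BIN1, which encodes a membrane-curving adaptor protein, overlapped by 27 bases, shown in capitals. The first was present on 4 and the second on 5 of 8 12-week arrays, and both were on no fetal array.
BIN1, probe starting at transcript base 806, bases 31 to 60: tcaACCAGAATCTCAATGACGTGCTGGTCA
BIN1, probe starting at transcript base 839, bases 1 to 30: ACCAGAATCTCAATGACGTGCTGGTCAgcc

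For TLR4, the receptor for bacterial lipopolysaccharide, the member probe was present on 5 of 8 12-week arrays, whereas the 2 other probes of the same transcript, which lie nearer its 3′ end, were present on all 8. All 3 were on no fetal array. No letters are in capitals in this set and the next, where the first 30 bases of each probe are given.
TLR4, member, start 749: aggtctggctggttcaaaaatcaatcagtt
TLR4, other probe, start 2208: attgtcgtggtgtcccagcacttcatacag
TLR4, other probe, start 2492: ttcagaaagcaaccagcatgatacaacagc

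The same contrast was seen for TBK1, a kinase that activates interferon production, and for OAS2, an interferon-induced enzyme that senses double-stranded RNA. Their member probes were each present on 4 of 8 12-week arrays, and their other probes on all 8. For CD8B, a coreceptor chain of cytotoxic T cells, the member probe was the one nearer the 3′ end and was present on 5 of 8, against 8 of 8 for the other probe.
TBK1, member, start 603: gttgatctttggagcattggggtaacattt
TBK1, other probe, start 2127: attttagaaaggtttggctctttaaccatg
OAS2, member, start 2210: atggactgatagtgctggaagaaacctcta
OAS2, other probe, start 3327: tgtctctcttcatctggctgttcactggta
CD8B, member, start 995: ctcatacctgagagcaacttgttacatagt
CD8B, other probe, start 931: atggacatgtcaccaacctgccaaagctgc

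No member was absent from every array of both younger ages, so no member's first detection was at 20 weeks. At 12 weeks, 4 members were present on 1 array, 24 on 2, 27 on 3, 47 on 4, 42 on 5 and 53 on 6, the highest number the rule allowed, with a median of 4 of 8 arrays. At the fetal stage, 115 members were present on no array, 35 on 1, 17 on 2, 12 on 3, 8 on 4, 3 on 5 and 7 on 6. The 12-week stage was thus a stage of partial detection, and only MT1A, SOX-6 and TNNI3 were present on more fetal than 12-week arrays. At the later ages 130 of the 197 members were present on all 15 arrays, and 9 were at the lower limit of 7 arrays at 20 weeks and 6 at 30 weeks. Just outside the rule lay 90 named probes that were present on 7 of 8 12-week arrays and otherwise fitted, and 48 that fell 1 array short at a later age.

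**Figure D1:**
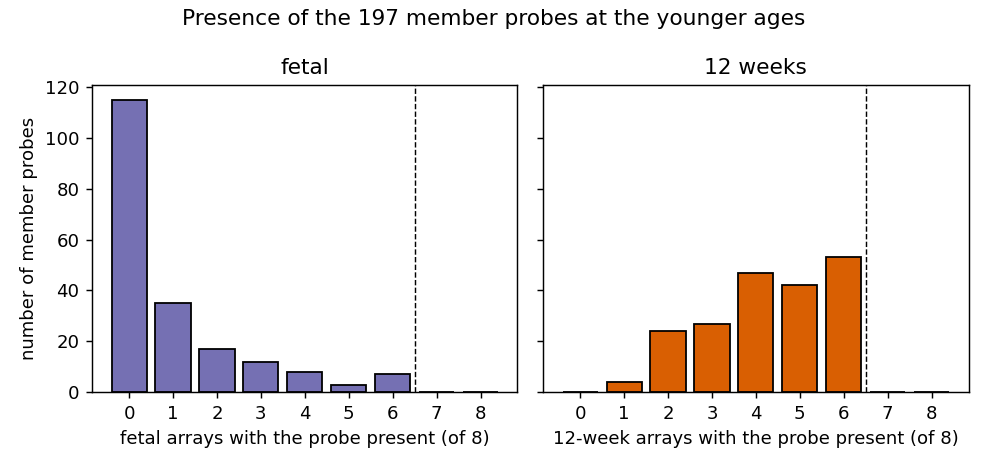
Number of member probes (vertical axis) by the number of fetal arrays (left) and 12-week arrays (right) on which the probe was present, of 8 each, with the rule's limit as a dashed line. At the fetal stage 115 of 197 were on no array, whereas at 12 weeks none was on 0 arrays and 53 were on 6.

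The 12-week animals differed widely in how many members were detected. In males 1 to 4 at 12 weeks, 140, 27, 194 and 95 of the 197 members were present, and in females 1 to 4 47, 47, 119 and 180. Male 3 and female 4 were therefore inside or close to the range of the 20-week arrays, which was 192 to 197, and male 2 and females 1 and 2 were inside the range of the fetal arrays, which was 5 to 48 with a median of 25. At 30 weeks the range was 162 to 197, the lowest being female 4 at 162 and male 1 at 170. Males and females at 12 weeks had 114 ± 70.7 and 98.3 ± 64.2 members present (SD, n = 4 each), a difference within the spread of either sex (exact permutation test, two-sided, p = 0.743, the smallest possible being 0.0286).

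The number of members present followed the number of all probes present in part. Fetal arrays had 5678 to 12776 probes present in all, 12-week arrays 13428 to 20731, 20-week arrays 18702 to 21794 and 30-week arrays 17361 to 21892. At 12 weeks, male 2 had the fewest probes present and the fewest members, and male 3 had the most of both, but female 4 had fewer probes than male 1 (18577 and 19123) and more members. Arrays were scanned on 5 days. The first held 12-week males 2 to 4 and female 4, the second the other 12-week arrays and the fetal females, the third the fetal males, the fourth all 20-week arrays with 30-week males 2 and 3 and female 4, and the fifth the remaining 30-week arrays. No scan day held both 12-week and 20-week arrays, so for the step that defines the members age cannot be told apart from scan day.

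**Figure D2:**
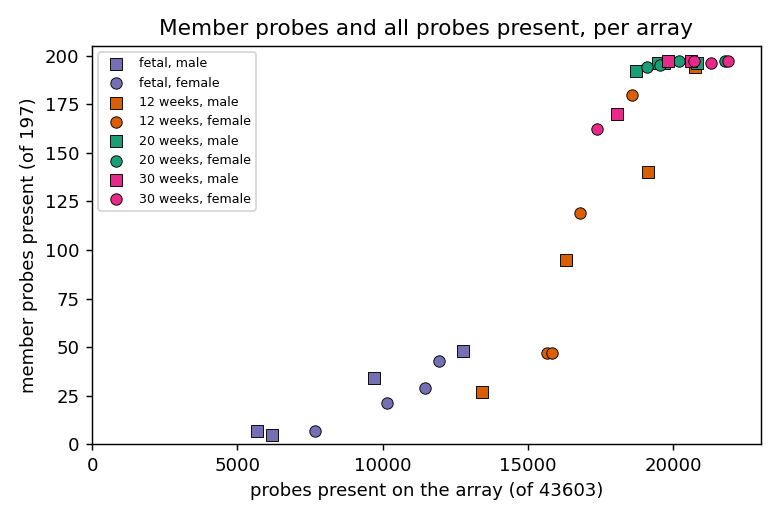
Member probes present (vertical axis, of 197) against all probes present (horizontal axis, of 43603), 1 point per array, coloured by age with squares for males and circles for females. The 12-week arrays spread from 27 to 194 members while the 20-week arrays lie between 192 and 197.

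The members were dim. Their median level at 20 weeks, on the quantile-normalized log2 scale used below unless stated, was 4.37 against 5.90 for the 18679 probes tested, at percentile 24.1 of these, and member means over the 15 later arrays ran from 3.34 to 7.46. Before normalization, the lowest log2 signal of any present probe lay between 3.097 and 4.18 on all 31 arrays. The members' median unnormalized signal was 1.03 to 2.55 on the fetal arrays, 2.68 to 5.60 at 12 weeks, 4.68 to 6.23 at 20 weeks and 4.44 to 6.56 at 30 weeks. The median member thus lay under the lowest present signal on every fetal array and on 12-week male 2 and females 1 and 2, and above it on every later array. The median of all probes was 1.05 to 1.64 on the fetal arrays, 1.51 to 3.33 on the 12-week arrays and 2.75 to 3.77 on the 20-week arrays, and its part in the presence pattern was not tested.

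**Figure D3:**
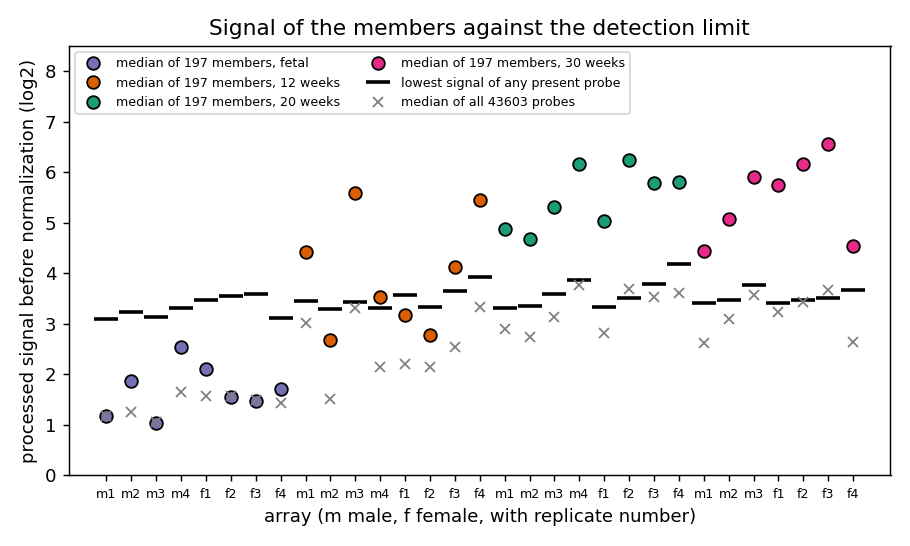
Processed signal before normalization (log2, vertical axis) for each of the 31 arrays in order of age and sex. Circles are the median of the 197 members, crosses the median of all 43603 probes and bars the lowest signal of any present probe, which the member median crosses only from 12 weeks on.

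Quantile normalization stretched the fetal arrays, so that the lowest present level became 4.48 to 7.17 there, against 2.66 to 4.38 at 12 weeks, 2.46 to 3.09 at 20 weeks and 2.46 to 3.44 at 30 weeks. As a result, 105 to 195 of the 197 members, depending on the array, had a later mean that would not have been called present on a fetal array. On the 12-week arrays this held for 0 to 96 members, with the 96 on male 2, and on the 20-week arrays for 0. For the 115 members present on no fetal array only a lower bound can be set on the difference from 20 weeks, taken from the higher of the fetal probe's own level and the array's lowest present level. That bound reached 1-fold or more in 9 members, with a median of 1.29-fold. MX2 was at least 2.47-fold higher at 20 weeks than at the fetal stage, KLF13 at least 1.60-fold, MU (BLOC1S5) at least 1.54-fold, OAS1 at least 1.38-fold, LOC733579 (TRIM5) at least 1.29-fold, NFATC1 at least 1.202-fold and MSN at least 1.04-fold. For the other 106 no fold change can be given. The bounds compare means, and the 20-week OAS1 values were split between animals, as given below. Another OAS1 probe was present on all 8 fetal arrays, with a mean of 8.98 there and 10.90 at 20 weeks.

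The mean of the 15 later arrays was above the 12-week mean in 175 of 197 members, with a median difference of 0.74, against 57.9% and 0.17 over all probes tested. It was above the fetal mean in 164, with a median difference of 1.53 against 67.2% and 1.14 over all probes. The 12-week and 20-week ranges overlapped in 191 members. The 6 exceptions, all higher at 20 weeks, compare with 4.23% of all probes tested. They were MX2, GNE, which starts sialic acid synthesis, HEXA, a lysosomal hexosaminidase, the co-chaperone DNAJA4, PPAT/DPCK (COASY), which makes coenzyme A, and LOC780431 (NDRG2). Only LOC780431 had all 15 later arrays, at 4.33 to 5.80, above all 12-week arrays, at 2.14 to 4.23. This held for the member probe and not for the gene's other probes. A probe nearer the 3′ end of its transcript was present on all 8 12-week arrays, with means of 9.10 there and 9.03 at 20 weeks. Another, also present on all 8, had means of 6.38 and 4.76, and a further probe, expressed at no age, of 1.60 and 2.39. All 15 later arrays lay above all fetal arrays in 28 members, against 22.8% of all probes tested.

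The spread of the members' normalized levels between animals was smaller at the later ages. The rule took probes present on nearly all later arrays but not on the younger ones, and many younger values lay under the detection limit. These spreads are therefore descriptions of the chosen probes, and no spread over all probes is given beside them. A member's SD had a median of 1.38 over the fetal animals, 0.886 over the 12-week animals, 0.305 over the 20-week animals and 0.471 over the 30-week animals. Scaling each array to its 75th percentile in place of quantile normalization kept 159 of 197 members higher later than at 12 weeks, but only 115 higher later than at the fetal stage.

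Other probes for the same genes bear on whether the gene or the probe was first called at 20 weeks. Of the 180 genes, 104 had at least 1 further probe on the array that was not a member, 169 probes in all. In 74 of these genes another probe was expressed at 12 weeks, and in 35 another was expressed already at the fetal stage. Of the 105 other probes expressed at 12 weeks, 93 were present on every 12-, 20- and 30-week array. For 30 genes no other probe was expressed at 12 weeks, and 57 of the 169 other probes were expressed at no age, among them all 4 other probes of PEG10 and the single other probe of TRAF6.

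The position of the probes on the transcript was compared next. In 95 pairs, from 59 genes, the other probe lay on the same transcript and was expressed at 12 weeks, and in 80 of them (84.2%) it lay nearer the 3′ end, by a median of 859 bases. In the 48 pairs whose other probe was on no more 12-week arrays than the member, 9 (18.8%) had it nearer the 3′ end. Among pairs of probes with a symbol that were not members, the probe present on more 12-week arrays was the one nearer the 3′ end in 220 of 327 (67.3%). The labelling began from whole blood RNA with a linear amplification kit, and any part of amplification or RNA length in this pattern was not tested. Median GC content was 45.0% in the members and 43.3% over all probes with a symbol.

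**Figure D4:**
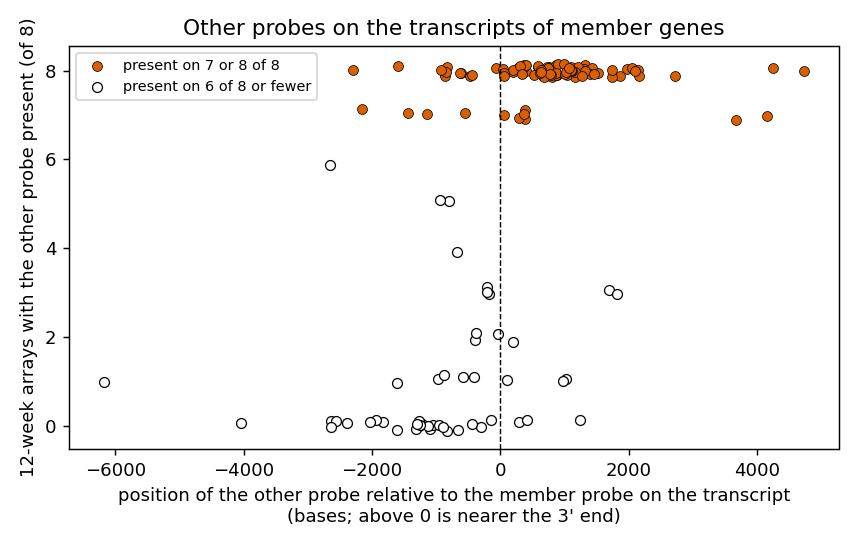
Number of 12-week arrays (of 8) on which another probe of a member's transcript was present, against its position relative to the member probe in bases, positive values being nearer the 3′ end; points are shifted slightly so that they do not hide each other. Filled points, present on 7 or 8 arrays, lie mostly to the right of the dashed line (80 of 95 pairs).

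T cell and cytotoxicity genes made up 8 of the members, each present on 2 to 6 of 8 12-week arrays and 5 of them on no fetal array. Counts by role here and below are to be read beside those of all members. Of the 197 member probes 115 were on no fetal array, and 74 of 104 genes with another probe had one expressed at 12 weeks. CD3D, a signalling chain of the T cell receptor, measured 3.97 to 5.28 at 12 weeks (median 4.68) and was present on 6 arrays there, and measured 4.84 to 5.35 at 20 weeks (median 4.91). The ranges overlapped, and the later mean was 0.44 above the 12-week mean. A second CD3D probe, starting at base 252 against base 200 for the member, was present on 7 of 8 12-week arrays, with a median of 5.03 there and 5.09 at 20 weeks. Another CD3D probe, on another transcript record of the gene, was present on all 8, with medians of 10.89 and 12.03.

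CD4, the coreceptor of helper T cells, was present on 2 12-week arrays, with a lowest, median and highest level of 1.27, 2.95 and 4.22, and measured 3.41, 3.66 and 4.10 at 20 weeks. CD8B measured 3.02, 4.28 and 5.71 at 12 weeks, 4.80, 5.23 and 5.53 at 20 weeks and 4.81, 6.20 and 6.52 at 30 weeks. Its fetal values lay between 1.55 and 4.21 on 7 arrays and at 7.23 on male 4, the only fetal array where it was present. The upstream CD8B probe had medians of 5.98 at 12 weeks and 6.38 at 20 weeks. LAG3, an inhibitory receptor of activated T cells, had medians of 4.48 at 12 weeks and 5.57 at 20 weeks, NFATC1, a transcription factor switched on by T cell receptor signals, of 3.87 and 6.03, and CD69, an early activation marker, of 4.34 and 3.96.

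**Figure D5:**
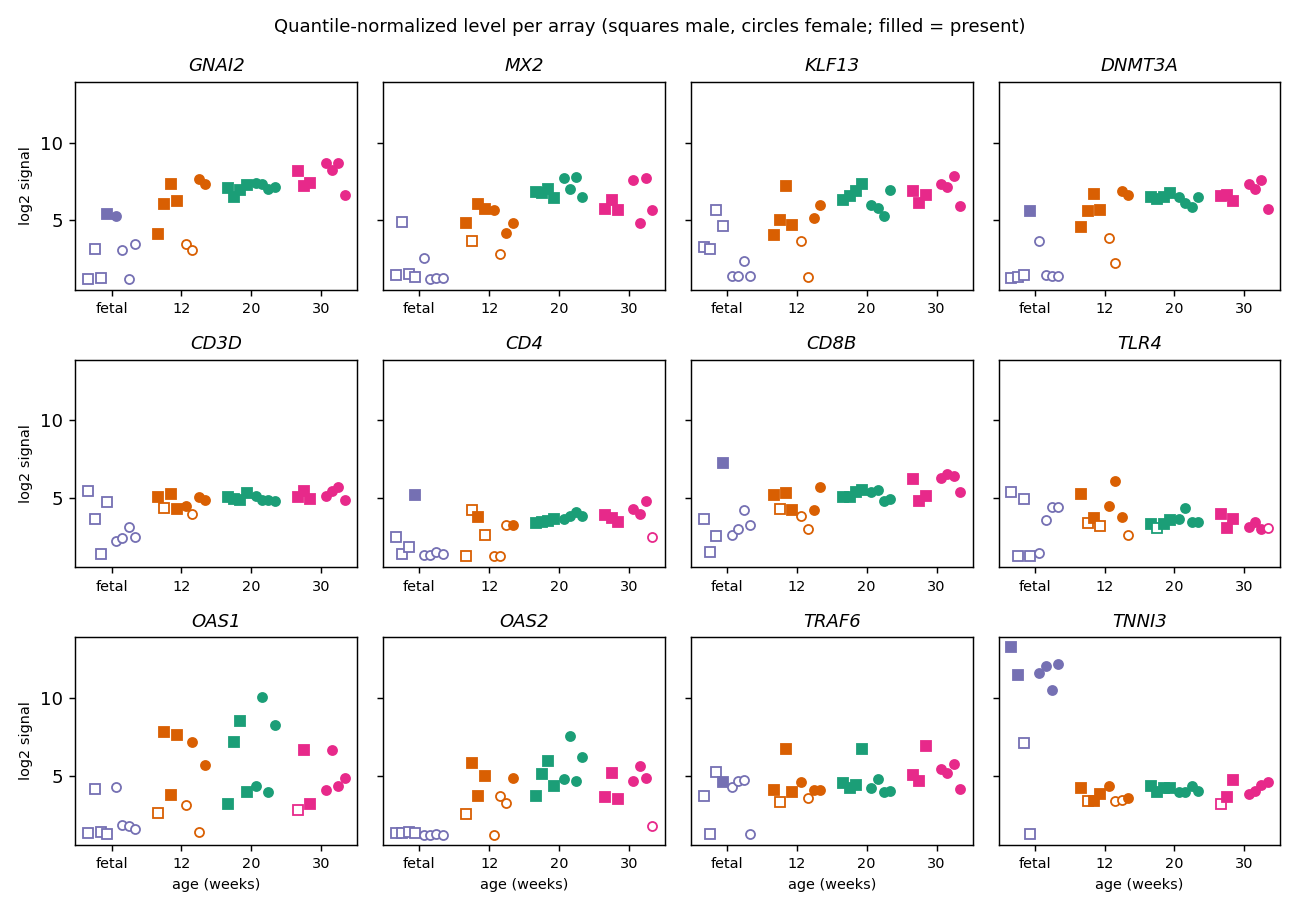
Quantile-normalized log2 signal of 12 members (vertical axis, 1 panel per gene) on every array by age, squares for males and circles for females, filled where the probe was present. CD3D and TLR4 overlap between 12 and 20 weeks, OAS1 spans 3.14 to 10.04 at 20 weeks, and TNNI3 is highest on fetal arrays.

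Genes of the antiviral and interferon response numbered 9, none on any fetal array, against 115 of all 197 member probes. Of the 8 with another probe, 7 had one expressed at 12 weeks, against 74 of 104 over all member genes. MX2, an interferon-induced GTPase, measured 2.85, 4.86 and 6.07 at 12 weeks (lowest, median and highest), 6.45, 6.92 and 7.77 at 20 weeks and 4.81, 5.74 and 7.73 at 30 weeks. All 20-week arrays lay above all 12-week arrays, and the 30-week arrays overlapped with both. The other MX2 probe, present on 7 of 8 12-week arrays, had medians of 4.69, 5.59 and 4.70.

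OAS1, like OAS2 an interferon-induced enzyme, differed strongly between animals within an age. At 12 weeks it measured 7.77 in male 2, 7.59 in male 4, 7.18 in female 2 and 5.71 in female 4, and 1.36 to 3.77 in the other 4 animals. At 20 weeks it measured 10.04 in female 2, 8.48 in male 3, 8.22 in female 4 and 7.18 in male 2, and 3.14 to 4.32 in the other 4. Those 4 values lay under the lowest present level of every fetal array, so the bound given above for the OAS1 mean does not extend to them. At 30 weeks it was 6.63 in both male 2 and female 2 and 2.78 to 4.82 elsewhere. The OAS2 member was highest on the same 4 20-week arrays, at 7.56, 5.92, 6.19 and 5.08 against 3.69 to 4.79 on the others, and the downstream OAS2 probe measured 13.42, 11.68, 11.96 and 10.87 there against 8.87 to 10.097. The other OAS1 probe did not follow this split and stayed between 10.53 and 11.17 at 20 weeks. TAP1, which carries peptides to MHC class I molecules, had medians of 3.33 at 12 weeks and 4.44 at 20 weeks.

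Among 8 Toll-like receptor and NF-kB genes, levels at 12 and 20 weeks went both ways. The TLR4 member measured 2.62, 3.74 and 6.10 at 12 weeks and 3.08, 3.47 and 4.35 at 20 weeks, so that its later mean was below its 12-week mean (difference −0.62) although it passed from unexpressed to expressed. The other TLR4 probes had medians of 6.33 and 6.26 at 12 weeks and 5.50 and 5.97 at 20 weeks. The kinase IKBKB, which releases NF-kB, had medians of 2.34 and 4.19, and the NF-kB subunit RELA of 3.06 and 4.33, each present on 2 12-week arrays. Of 2 other IKBKB probes, 1 was present on all 8 12-week arrays, with means of 7.08 there and 7.23 at 20 weeks. The other was expressed at no age. TRAF6, an adaptor of Toll-like receptor signalling, stood high on 1 array of each older age, at 6.68 in 12-week male 3, 6.73 in 20-week male 4 and 6.91 in 30-week male 3, with 12-week and 20-week medians of 4.06 and 4.30. BIRC4 (XIAP), an inhibitor of caspases, had medians of 4.05 at 12 weeks, 3.74 at 20 weeks and 3.56 at 30 weeks.

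Of 9 B cell and myeloid genes, 6 were on no fetal array, against 115 of all 197 member probes. CD72, a B cell coreceptor, measured 1.43, 2.44 and 4.48 at 12 weeks and 3.68, 3.91 and 4.94 at 20 weeks. PU.1 (SPI1), a transcription factor of myeloid and B cells, measured 2.63, 3.93 and 4.43 and then 3.68, 4.42 and 4.50, and TBXAS1, the thromboxane synthase of platelets and monocytes, 1.28, 3.25 and 4.99 and then 4.53, 4.96 and 5.34. For all 3 the groups overlapped.

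The 15 members known as transcription or chromatin regulators included some of the brightest. KLF13, a zinc finger factor that acts in T cells, measured 1.34, 4.90 and 7.24 at 12 weeks and 5.28, 6.45 and 7.37 at 20 weeks. DNMT3A, which sets new DNA methylation, measured 2.25, 5.65 and 6.86 and then 5.84, 6.49 and 6.78. In both the ranges overlapped through the highest 12-week animals. DNMT1, the maintenance methyltransferase, had 2 member probes near the 5′ end, starting at bases 309 and 783, on 6 and 4 12-week arrays, and 2 other probes starting at bases 4462 and 5034 that were present on 7 and 8.

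Signalling members, 11 in all, were led by GNAI2, an inhibitory G protein subunit used by chemokine receptors. It measured 3.099, 6.15 and 7.69 at 12 weeks, 6.53, 7.11 and 7.40 at 20 weeks and 6.66, 8.20 and 8.72 at 30 weeks, and had the highest later mean of all members, at 7.46. Its 2 other probes, with 12-week medians of 6.97 and 9.70, were 7.86 and 10.66 at 20 weeks. PRKCA, a protein kinase C, measured 1.34, 3.31 and 4.84 at 12 weeks and 4.73, 5.01 and 5.57 at 20 weeks. FRAP1 (mTOR), the growth-controlling kinase, had medians of 4.07 at 12 weeks and 3.59 at 20 weeks, and lay higher at the fetal stage, at 5.85.

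Fatty acid, lipid and energy metabolism gave 15 members. UCP3, a mitochondrial carrier known best from muscle, was present on only 1 12-week array. It measured 4.18 in 12-week male 3, 3.68 in male 4 and 3.18 in female 4 but 1.32 to 1.37 in the other 5 12-week animals, and 2.57, 3.66 and 4.34 (lowest, median and highest) at 20 weeks. CS, the citrate synthase of the Krebs cycle, measured 1.71, 3.20 and 4.31 at 12 weeks and 3.95, 4.36 and 4.67 at 20 weeks, and IDH3B, a later enzyme of the cycle, 1.55, 6.15 and 6.91 and then 6.42, 6.68 and 6.88. The carnitine palmitoyltransferases CPT1A and CPT1B, which admit fatty acids to mitochondria, had medians of 3.70 and 4.16 at 12 weeks and 4.38 and 5.05 at 20 weeks. The triglyceride enzymes DGAT (DGAT1) and PNPLA2, which make and break stored fat, had medians of 3.74 and 3.21 and then 4.15 and 4.08. The 3 other PNPLA2 probes, present on all 8 12-week arrays, did not rise. Their means were 6.89, 5.44 and 9.81 at 12 weeks and 5.85, 4.14 and 9.80 at 20 weeks. The 3 other CS probes, also present on all 8, rose from means of 6.93, 7.01 and 8.60 to 7.90, 7.82 and 9.36.

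The remaining role groups were smaller. Among 9 genes of lysosomes and related organelles, MU (BLOC1S5), part of a complex that forms pigment granules and platelet dense granules, measured 2.31, 4.33 and 6.66 at 12 weeks and 6.16, 6.37 and 6.79 at 20 weeks. Of 7 cytoskeletal genes, all absent from every fetal array and 6 of them with another probe expressed at 12 weeks, MSN (moesin), which ties actin to the membrane of white cells, measured 3.03, 4.14 and 6.61 and then 5.57, 5.76 and 5.93. The 3 genes of the calpain system (CAPN2, CAPN3 and their inhibitor CAST), the 6 of glycosylation, the 6 of cell cycle and DNA damage and the 5 of nuclear transport and RNA had median later-minus-12-week differences of 0.59, 0.09, 0.30 and 1.11.

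Members known best from other tissues, 12 in all, had later means of 3.68 to 4.63, against a median of 4.41 over all members. CGA, the shared subunit of pituitary glycoprotein hormones, had medians of 4.25 at 12 weeks and 4.21 at 20 weeks, OB (leptin) of 4.54 and 4.23 and PRM1, a sperm chromatin protein, of 4.23 and 3.96.

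For 18 members the fetal stage was no stage of absence. These were present on 4 or more of 8 fetal arrays, and in all 18 the normalized fetal mean was above the later mean. After normalization the lowest present level was 4.48 to 7.17 on fetal arrays, against a median later mean of 4.41 over all members. A higher fetal mean thus follows in part from choosing members present there, and the 18 of 18 is a description. TNNI3, the cardiac isoform of troponin I, measured 13.27, 11.44, 7.06 and 1.23 in fetal males 1 to 4 and 11.59, 12.02, 10.50 and 12.14 in fetal females 1 to 4, and 3.36 to 4.34 at 12 weeks and 3.94 to 4.34 at 20 weeks. It was high on 6 fetal arrays and dim on male 4. The 3 other TNNI3 probes had fetal medians of 11.52, 9.20 and 6.02 and 12-week medians of 5.19, 3.73 and 1.31. SOX-6, a transcription factor of the red cell line, measured 5.20 to 9.64 on the fetal arrays, 1.41 to 6.50 at 12 weeks and 3.44 to 4.63 at 20 weeks. MT1A, a metal-binding metallothionein, measured 1.89 to 12.35, 1.28 to 4.19 and 3.29 to 4.63. PEG10, an imprinted gene of the placenta, BMDP (ABCG2), an efflux transporter of stem cells and red cell precursors, and ART4, which carries the Dombrock blood group, had fetal medians of 6.63, 6.58 and 6.20 and 20-week medians of 3.35, 3.89 and 3.84.

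The step from the fetal stage to 12 weeks is also a description, because the rule limited presence at both ages. In the limma fit with Benjamini-Hochberg adjustment over 18679 probes, 82 members (41.6%) were called higher at 12 weeks, against 47.2% of all probes, and 25 (12.7%) lower, against 21.7%. Of the 82, 76 were present on no fetal array, 6 on 1 or 2 and none on 3 or more. Their fetal values were thus mostly below the detection limit, and for none of the 76 did the bound set by that limit reach 1-fold. No bound was computed for the other 6. Neither a direction nor a fold change is therefore given for the 82. CD180, a Toll-like receptor homologue of B cells, for example, was present on no fetal array and had a 12-week mean of 4.54 ± 0.75 (SD, n = 8), where the lowest present level on fetal arrays was 4.48 to 7.17.

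Of the 25 members called lower at 12 weeks, 17 were among the 18 present on 4 or more fetal arrays. Many of these were below background on part of the 12-week arrays, and normalization had raised the lowest present level on the fetal arrays. Their differences are therefore approximate. TNNI3, present on 5 of 8 12-week arrays, had a log2 difference of −6.21 ± 0.91 (SE), SOX-6, present on 3, −4.12 ± 0.57, and MT1A, present on only 1, −4.55 ± 0.90. BMDP, present on 6, differed by −2.65 ± 0.23. The lipid enzymes SCD and HADHA and the cell cycle genes CDC20 and TOPOII (TOP2A), present on 6, 5, 6 and 6 12-week arrays, differed by −2.64, −2.26, −1.62 and −1.44.

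By role, the higher calls carry the same detection limit, so their counts give no direction of change. All 9 antiviral members, for example, were on no fetal array. The counts called higher at 12 weeks are to be read beside the 47.2% of all probes. They were 8 of 9 antiviral, 7 of 9 lysosomal, 5 of 8 T cell, 4 of 8 Toll-like receptor and NF-kB and 4 of 9 B cell and myeloid members. Further counts were 4 of 7 cytoskeletal, 2 of 6 glycosylation, 1 of 3 calpain and 1 of 5 nuclear transport members. None of these groups had a member called lower. In the other groups both directions were called. There were 8 higher and 1 lower of 15 transcription, 6 and 2 of 11 signalling, 4 and 3 of 12 other-tissue, 2 and 2 of 6 cell cycle and 2 and 4 of 15 metabolic members. Within scan day 2, which held fetal females and 12-week animals, 45 members were called higher, against 31.9% of all probes, and 25 lower, against 15.8%. With each array scaled to its 75th percentile the balance turned, to 16 higher, against 34.5% of all probes, and 67 lower, against 33.4%, so the direction of the member group as a whole at this step depended on the scaling.

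Markers of the blood cell types moved over the same ages, and their part in the members' levels was not tested. The summed linear signal of the 11 T cell markers measured on the array was 524 to 4674 on fetal arrays, 5137 to 8918 on 12-week arrays, 8091 to 12908 on 20-week arrays and 6552 to 10163 on 30-week arrays, and none of the 11 was absent from every array. The 4 erythroid markers summed to 54767 to 93427, 13192 to 28761, 8884 to 19742 and 3990 to 22756, with TFRC on no array. The 6 neutrophil markers summed to 32932 to 54152, 14242 to 38378, 19695 to 31721 and 14085 to 28408. Sums of B cell and of monocyte markers were lower on every fetal array than on any older one. Platelet marker sums overlapped between all ages, at 4827 to 74145, 5917 to 15732, 4680 to 8951 and 8468 to 16682. Those of cytotoxic markers overlapped between fetal and 12-week arrays, at 49363 to 64356 and 51016 to 79280. Markers of both white and red cells were thus detected in these samples.

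The rule required presence at both later ages, so a member lost at 30 weeks could not enter. Low counts of change between these ages are therefore no evidence of a steady level. Between 20 and 30 weeks no member passed the limma test, and 2 of 18679 probes did (0.0107%). At an unadjusted p under 0.05 there was 1 member (0.508%), against 8.97% of all probes. That member was LOC396564 (FUNDC2), a mitochondrial outer membrane protein, with a difference of 0.999 ± 0.33 (SE, limma adjusted p = 0.249). Next came OAS2, with −1.12 ± 0.57 (limma adjusted p = 0.586), and TNFRSF1B, a TNF receptor, with a difference of 0.57 ± 0.31 (limma adjusted p = 0.640) that turned to −0.47 within scan day 4. The 95% interval of the difference lay within 1 log2 unit either way for 60 of the 197 members; for the others it reached further. Within scan day 4, which held all 20-week arrays but only 3 30-week arrays, 6 members were lower at 30 weeks, against 1.42% of all probes.

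Across the ages, 2 members were lower in males, against 0.278% of all probes, and none was higher. HPS1, of a complex that forms lysosome-related organelles, differed by −1.201 ± 0.22 (SE, limma adjusted p = 0.00829), and a probe of CH242-98D1.2 (RAE1), which exports mRNA from the nucleus, by −1.12 ± 0.21 (limma adjusted p = 0.00998). In the fetuses all males lay below all females for both probes. HPS1 measured 1.27, 1.39, 1.42 and 3.80 in fetal males 1 to 4, none present, and 5.56, 6.13, 4.97 and 5.39 in fetal females 1 to 4. At 20 weeks the male range of 4.17 to 4.59 overlapped the female range of 4.42 to 4.60. The RAE1 probe measured 1.40 to 3.96 in fetal males and 5.12 to 6.48 in fetal females. The 2 other member probes of RAE1 were not called, and their profiles correlated with that of the called probe at −0.035 and 0.168 (Pearson r). Fetal males and fetal females were scanned on different days, so sex cannot be told apart from scan day in the fetuses, and without the fetal arrays neither probe passed (HPS1 −0.42, limma adjusted p = 0.9999).

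The step from 12 to 20 weeks and the step from 20 to 30 weeks did not differ detectably between the sexes for any member or for any probe (0% of 18679 by the limma interaction test). The tests were imprecise, so they do not show that the sexes were alike. Over the members, the confidence interval of the interaction had a median half-width of 1.75 log2 units for the first step and 1.82 for the second. It lay within 1 log2 unit either way for 0 members and 1 member. At an unadjusted p under 0.05 there were 3 members (1.52%, against 1.83% of all probes) for the first step and 0 members (against 0.348%) for the second. The 3 were CH242-196P11.9 (KLHDC3), with an interaction of 2.44 ± 0.88, MYBPH, with −1.32 ± 0.56, and TUFT1, with −1.30 ± 0.62 (SE, limma adjusted p = 0.99999 for each). For the later step the smallest p belonged to SLC12A4, with −1.30 ± 0.67, and then to TNFRSF1B and KPNA4, with −0.95 ± 0.62 and −0.85 ± 0.59 (SE, limma adjusted p = 0.99996 for each).

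Across the 31 arrays, which share their age differences, the profile most like that of MX2 was SLC7A7 (Pearson r = 0.917, not a member) and then the member FUCT1 (0.915). GNAI2 was most like CD74 (0.958, not a member) and DNMT3A (0.956), and KLF13 most like MRLC2 (0.928, not a member) and MU (0.927). The 16 genes with several member probes, 33 probes in all, gave like profiles in some cases and not in others. The pairs of APP and MAOA had r of 0.928 and 0.899, the overlapping pairs of BIN1 and IDH3B, with 27 and 32 shared bases, 0.672 and 0.766, and the pair of CH242-196P11.9 −0.519.

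Lists of marker and pathway genes held the members at shares to be read against 180 of all 2081 named genes (8.65%). Members were 3 of 11 T cell, 1 of 3 B cell, 1 of 7 cytotoxic (PRF1), 1 of 12 monocyte, 1 of 9 platelet, 0 of 6 neutrophil and 0 of 4 erythroid markers. They were 4 of 23 interferon pathway genes (MX2, OAS1, OAS2 and OASL), 3 of 19 pattern recognition genes (IFIH1, TLR4 and TRAF6), 2 of 17 cytokine receptors (TNFRSF1B and LOC100038019, TGFBR2), 0 of 12 chemokine receptors and 1 of 32 complement and coagulation genes, SBAB-707F1.11 (CFB). They were 5 of 30 lipid (CPT1A, CPT1B, DGAT, PNPLA2 and SCD), 3 of 23 energy metabolism (CS, PFKM and UCP3), 3 of 27 membrane transporter (BMDP, SERCA2 and SLC27A1) and 2 of 8 cell cycle genes. The others were 1 of 17 apoptosis, 1 of 19 nuclear receptor (NR1H3), 2 of 32 G protein-coupled receptor (PTHR1 and LOC606753, ADORA3), 1 of 15 kinase signalling, 1 of 25 skeletal muscle (MEF2C), 1 of 18 liver (VTN) and 4 of 42 reproductive and hormone genes (CGA, CYP19A1, OB and PRM1).

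Members close to the presence limits of 7 arrays at 20 weeks and 6 at 30 weeks were TLR4, CPT1A, P4HA1, ACY1, CAST, SLC35A3, RNF4 and CH242-7P5.1, whose 20-week medians ran from 3.47 for TLR4 to 4.38 for CPT1A. The choice of flag also mattered. With the well above background flag alone the same 197 probes met the rule, whereas with the positive and significant flag alone 163 probes did, of which 22 were among the 197.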

How the data were processed

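Whole blood RNA was collected in PAXgene tubes, labelled with Cy3 from 0.5 ug and hybridized by the authors to single-colour Agilent arrays. Per the labels, spots were read with Feature Extraction 9.5.3.1, whereas the file headers give 10.1.1.1. The authors deposited spot intensity values, background-subtracted by that software, with flags, and quantile-normalized values whose log2 scale was inferred from their range. Here log2 processed intensities of 43603 probes were quantile-normalized and tested with limma 3.58.1 in R 4.3.3 on all 31 arrays (age by sex, Benjamini-Hochberg threshold 0.05). The fit took the 18679 probes expressed at 1 age or more, and was checked on simulated data. No intensity has a count depth, so precision rests on the number of arrays. Detection bounds are means of normalized log2 values against each array's lowest present level. Where a gene had several member probes, the brightest was named. Gene names were updated through RefSeq for assembly Sscrofa11.1 (187 of 197 matched), and no coordinates were used.

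Members, lists and role groups were chosen with earlier results of these data known. Genes were named as the brightest members, those that differed most or least between later and earlier ages, those called or nearest to being called in each test, list members, members nearest the presence limits and the most similar profiles. LOC780431, GNE, HEXA, DNAJA4, PPAT/DPCK and the members named only by role were picked after their values were seen. Alternatives were 75th percentile scaling, normexp with an offset of 50, the deposited values, all probes, slide, scan day or replicate number as a block, each flag alone and leaving out each array. Leaving out the fetal arrays from the test of sex was added after the data were seen. Some results are not reported here.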

Additional observations from a re-analysis of the deposited data

Results flagged for a closer look

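In 29 of 292 sets of arrays (9.93%), the highest or lowest array lay far from its nearest neighbour by Dixon's criterion. Each set held the arrays of 1 age, for a named member or for the number of members present per array. For normally distributed values chance alone flags about 1 in 20, and values under the detection limit need not follow that rate. No explanation was weighed.

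Fetal male 2 stood high for MX2 (4.91), UCP3 (4.86), DGAT (4.24), VTN (6.10), ACY1 (7.47) and SBAB-707F1.11 (CFB, 14.0), and low for CDC20 (1.92). For CFB, a complement protease, the other fetal arrays measured 1.19 to 5.51. Fetal male 4 stood high for PRKCA (3.99), LAG3 (4.05), CD4 (5.21) and CD8B (7.23), and fetal female 1 for NFATC1 (3.01), BIRC4 (2.64) and PNPLA2 (4.33). Of these high values, only those of VTN, ACY1, CFB, CD4 and CD8B were on arrays where the probe was present, and the others rank signals that were not called present.

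At 12 weeks, TRAF6 was high in male 3 (6.68), LOC396564 (1.30) and MEF2C (1.66) were low in female 2, HPS1 was low in male 4 (2.35), PFKM in male 1 (1.32) and CAST in male 2 (1.25). None of the 12-week low values was called present. At 20 weeks, TRAF6 was high in male 4 (6.73) and TLR4 in female 2 (4.35), while CYP19A1 was low in male 4 (2.38) and CPT1B in female 3 (4.58). At 30 weeks, MU (5.67), NFATC1 (3.88) and PFKM (3.04) were low in male 1, IFIH1 in female 4 (3.24) and BIRC4 in female 1 (3.04).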

How the results depend on the processing

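The number of members depended on the limits, with 130 probes present on all 15 later arrays and 100 present on at most 4 of 8 arrays at each younger age, and leaving out 1 array at a time gave 162 to 230. For 12 weeks against the fetal stage, members higher at 12 weeks numbered 16 with 75th percentile scaling, 49 with normexp background correction and 45 within the shared scan day, and members lower numbered 67 with 75th percentile scaling. Leaving out 1 array gave 70 to 88 higher and 21 to 28 lower. The median later-minus-earlier level of the members, 1.08, became 0.37 with 75th percentile scaling and 0.22 with normexp. For 30 against 20 weeks the count of 0 became 6 within the shared scan day, where TNFRSF1B reversed to −0.47, and stayed 0 in all other settings. For males against females the count of 2 became 0 with 75th percentile scaling, 1 with normexp, 0 without the fetal arrays, 5 without fetal male 4 and 7 without 12-week female 4, and leaving out 1 array gave 2 to 7. In the replicate block fit, which also left out the fetal arrays, it was 0, and HPS1 was −0.42 as without the block. The numbers are not stated to mark the same pig and same-numbered arrays correlated at −0.49 to 0.58, so they were not taken to pair the samples, and no other count changed under the block. The sex difference in members present at 12 weeks ran from −10.9 without male 3 to 44.8 without male 2. Both interaction counts stayed 0 in every setting run. The causes were not tested.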
